A study of Mus musculus with 3 samples.

Results

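Glypicans and syndecans are the cell-surface proteoglycans that carry heparan sulfate, and all 10 mouse genes of both families, Gpc1 to Gpc6 and Sdc1 to Sdc4, were read from a table of 27179 genes by their NCBI gene IDs. The table holds 1 group of 3 libraries (replicates 1, 2 and 3). Each was made from live CD45-, CD31- and Ter119-negative cells carrying CD140a (the Pdgfra protein), Sca1 (the Ly6a protein) and PDPN (podoplanin), sorted from collagenase-digested epididymal fat of naive wild-type C57B6 males aged 12 weeks. The tissue came from 3 mice, but no label ties a library to a mouse, and some of the spread measured over libraries may thus be technical. No treatment, second genotype or second cell type was measured, and the comparisons are therefore between genes within a library and between libraries.

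Glypicans are held to the outer leaflet of the plasma membrane by a glycosylphosphatidylinositol (GPI) anchor, whereas syndecans span the membrane and end in a short cytoplasmic tail that binds PDZ-domain proteins. Both display heparan sulfate, a sulfated sugar chain that captures fibroblast growth factors, Wnt, Hedgehog and bone morphogenetic proteins, chemokines and lipoprotein lipase, and presents them to their receptors. In mesenchymal cells, syndecans also act with integrins in adhesion to fibronectin, and several glypicans tune Hedgehog and Wnt signalling.

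The libraries held 32813373, 25060096 and 27275888 counts, and 10884 to 11140 genes reached 1 CPM (counts scaled to library sizes by TMM, a trimmed-mean method) in each. A count of 0 allows up to 3 counts, which is 0.0952, 0.118 and 0.107 CPM in the 3 libraries and covers counting error only. Progenitor markers were present throughout: 6 of 6 reached 1 CPM in each library, with Pdgfra at 1484 ± 23.4 CPM (SD, n = 3). Of these, Pdgfra, Ly6a and Pdpn encode the proteins the cells were sorted on, so they are no independent sign of identity. Markers of other cells were mostly near 0, but some passed 1 CPM in part of the libraries. None of the 6 endothelial, 8 macrophage, 6 lymphocyte and plasma cell, 6 mesothelial, 5 epithelial and 5 mature adipocyte markers reached 1 CPM in every library. Their summed levels were 0.0952 to 0.197, 0.178 to 3.91, 0.0317 to 0.158, 0.539 to 7.70, 0.190 to 8.53 and 2.10 to 3.17 CPM, and Esam, C1qb, Lck, Adipoq and Cidec had 0 counts. Krt18, listed as mesothelial and epithelial, stood at 0.0634, 7.58 and 3.42 CPM, and Plin4 at 2.13, 2.84 and 0. Csf1r and Cd68 reached 2.17 and 1.70 CPM in replicate 2, and Lep 2.07 in replicate 3. The mural list had 1 of 5 (Abcc9 at 12.9, 85.0 and 16.6 CPM), its sum running from 16.8 to 89.4 CPM. Kcnj8 stood at 2.19, 4.38 and 0 CPM, Cspg4 at 1.71, 0.0395 and 5.16, Mcam at 0, 0 and 0.712, and Rgs5 at 0. The Schwann list had 1 of 4 (S100b at 6.19, 5.17 and 1.50 CPM, with Sox10 at 0), its sum running from 1.64 to 6.22 CPM.

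Transcripts of 2 genes, Sdc2 and Gpc6, made up most of both families. Of the 10 genes, 6 were detected, meaning that no library was below 1 CPM: Sdc2, Gpc6, Sdc4, Gpc4, Gpc3 and Sdc3. The same rule called 35.0% of all 27179 genes of the table and 43.6% of 20979 protein-coding genes. The median member stood at 5.40 CPM, beside 0.108 CPM for all genes and 1.89 CPM for protein-coding genes. The 4 undetected members were Gpc1, which reached 1 CPM in a single library, Sdc1, Gpc2 and Gpc5. Levels of different genes are compared below as CPM per kilobase of merged exon, because a longer transcript yields more reads. On that scale the order of means was Sdc2, Gpc6, Sdc4, Gpc4, Gpc3, Sdc3, Gpc1, Sdc1, Gpc2 and Gpc5.

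**Figure D1:**
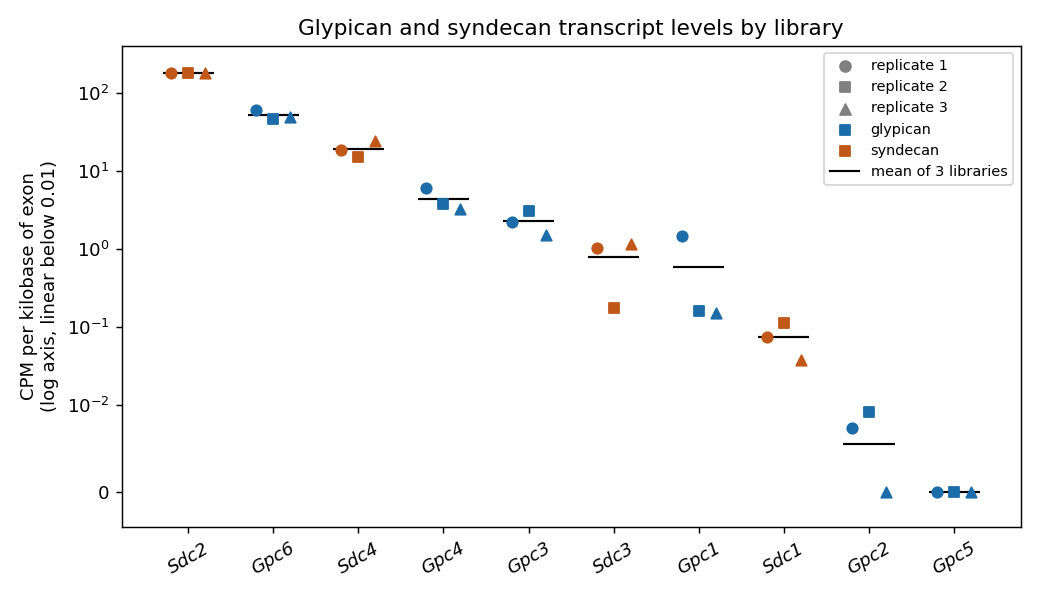
CPM per kilobase of exon (vertical log axis, linear below 0.01) of each member in each of the 3 libraries, ordered by mean; bars are means and colour gives the family. Sdc2 lies between 179.5 and 180.3 and Gpc5 at 0 in every library, and the points of Sdc3 and Gpc1 lie far apart between libraries.

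Sdc2 encodes syndecan-2, the syndecan most typical of fibroblasts and other mesenchymal cells (gene 15529, chromosome 15, 32920723 to 33034721, GRCm38). It stood at 633, 636 and 634 CPM, a mean of 634 ± 1.41 (SD, n = 3), from 19961, 16111 and 17802 counts. The 3 libraries were thus nearly equal, and their coefficient of variation, 0.222%, was below the 0.746% that counting error alone gives at this depth. Per kilobase the mean was 179.9 ± 0.399 CPM, at percentile 96.9 of 9138 detected protein-coding genes with a known exon length. A stretch of 284 bases of its transcript matches the long noncoding RNA Gm32618 at 93.7% identity, so a small part of its reads could have been placed elsewhere or left out.

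Sdc4 encodes syndecan-4, a focal adhesion protein that joins integrins in binding fibronectin and whose tail activates protein kinase C alpha (gene 20971, chromosome 2, 164424247 to 164443188). Its levels were 47.5, 38.9 and 61.8 CPM, or 49.4 ± 11.5 on average. Replicate 3 was highest and replicate 2 lowest, a 1.59-fold range. Per kilobase it reached 19.4 ± 4.53 CPM, percentile 77.3 of the detected protein-coding genes.

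Sdc3 and Sdc1 were low. Sdc3, the syndecan best known from neural tissue (gene 20970, chromosome 4, 130792537 to 130826318), stood at 6.12, 1.07 and 6.87 CPM, 4.69 ± 3.16 on average. Replicates 1 and 3 were close together and replicate 2 was far below them, just inside the limit for detection, with 27 counts against 193 in each of the other libraries. Sdc3 exons overlap the antisense genes Gm26716 and Gm12970 over 415 and 48 bases, and without strand their reads cannot be told apart from those of Sdc3. Sdc1, which encodes syndecan-1 (CD138), the main syndecan of epithelia and plasma cells (gene 20969, chromosome 12, 8771396 to 8793716), had 9, 11 and 4 counts. These are 0.285, 0.434 and 0.142 CPM, below 1 CPM in every library. Counting error alone gives a coefficient of variation of 35.4% at such counts, so the order of the libraries is uncertain for Sdc1. Beside it, the plasma cell genes Jchain and Mzb1 had 2 counts and 1 count over all libraries. The epithelial sum was highest in replicate 2, as Sdc1 was, mainly through Krt18 at 0.0634, 7.58 and 3.42 CPM. Epcam, with 1, 22 and 0 counts, was also highest there. Krt8 and Krt19 had 0 counts in replicate 2, and Cdh1 had 2, 2 and 0. Sdc1 was lowest in replicate 3, where Krt18 was above its replicate 1 level. A part of epithelial cells in the Sdc1 counts was not tested. The Sdc1 transcript also matches 2 processed pseudogenes, Gm16407 and Gm14724, at 94.9% and 90.7% identity, so its level is uncertain.

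Among the glypicans, Gpc6 stood far above the other 5. Gpc6 encodes glypican-6, whose loss shortens the long bones and which promotes Hedgehog signalling there (gene 23888, chromosome 14, 116924920 to 117979529). It was measured at 389, 298 and 320.2 CPM, a mean of 336 ± 47.6, from 12272, 7552 and 8991 counts. Replicate 1 was 1.31 times replicate 2, the lowest. Per kilobase it reached 52.3 ± 7.40 CPM, percentile 89.97 of the detected protein-coding genes.

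Gpc4 and Gpc3 lie next to each other on chromosome X, 107.5 kb apart, and both were detected at low levels. Gpc4, a glypican of Wnt and fibroblast growth factor signalling that fat tissue also releases and that binds the insulin receptor (gene 14735, 52051007 to 52164923), stood at 16.0, 9.91 and 8.55 CPM, 11.5 ± 3.94 on average. Gpc3, an inhibitor of Hedgehog signalling whose loss causes overgrowth (gene 14734, 52272426 to 52613974), stood at 6.06, 8.25 and 4.02 CPM, 6.11 ± 2.11 on average. Per kilobase, Gpc4 was at 6.02, 3.74 and 3.22 CPM and Gpc3 at 2.25, 3.07 and 1.50 CPM. The lowest Gpc4 library was above the highest Gpc3 library by a narrow margin, and the highest library was replicate 1 for Gpc4 and replicate 2 for Gpc3.

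Gpc1, Gpc2 and Gpc5 were not detected in every library. Gpc1, a widely expressed glypican that supports fibroblast growth factor signalling (gene 14733, chromosome 1, 92831645 to 92860211), had 236, 21 and 22 counts, or 7.49, 0.829 and 0.784 CPM. Replicate 1 was 9.55 times the lowest library, and the other libraries were nearly equal. Gpc1 exons overlap those of Ankmy1 on the other strand over 977 bases, and Ankmy1 had 0, 1 and 2 counts. Gpc2, a glypican of developing neurons (gene 71951, chromosome 5, 138273657 to 138280026), had 1, 1 and 0 counts, a pooled level of 0.0235 CPM with a 95% exact Poisson interval of 0.00285 to 0.0851 CPM that covers counting error only. In GENCODE it shares 2376 of its 4274 exon bases with Gm43720, a same-strand gene model. Reads from these bases could have been placed elsewhere or left out, so the level of Gpc2 is uncertain beyond that interval. Gpc5 (gene 103978, chromosome 14, 115092201 to 116525192), a glypican that promotes Hedgehog signalling, had 0 counts in all 3 libraries. It is the neighbour of Gpc6, 399.7 kb away, so within this pair of adjacent genes the levels ran from 336 CPM to under the limit that 0 counts allow.

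Promoter sequences were at hand for 7 of the 10 members, not for Sdc2, Gpc6 or Gpc1. Those of Sdc4 and Gpc5 are shown because these 2 genes have the highest and the lowest level among the 7. Each is 300 bases, from 250 before to 50 after the RefSeq start (GRCm38.p6), written 5′ to 3′ on the strand of the gene, chr2:164443139-164443438 (minus strand) for Sdc4 and chr14:115091965-115092264 (plus strand) for Gpc5. Capitals mark GC boxes, the letters GGGCGG or their reverse complement CCGCCC.
Sdc4: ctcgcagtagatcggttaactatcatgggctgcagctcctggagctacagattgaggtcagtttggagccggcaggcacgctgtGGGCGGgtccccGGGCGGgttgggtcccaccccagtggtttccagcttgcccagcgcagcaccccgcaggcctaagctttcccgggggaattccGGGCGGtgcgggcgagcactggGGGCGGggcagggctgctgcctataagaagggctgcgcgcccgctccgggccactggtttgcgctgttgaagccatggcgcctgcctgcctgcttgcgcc
Gpc5: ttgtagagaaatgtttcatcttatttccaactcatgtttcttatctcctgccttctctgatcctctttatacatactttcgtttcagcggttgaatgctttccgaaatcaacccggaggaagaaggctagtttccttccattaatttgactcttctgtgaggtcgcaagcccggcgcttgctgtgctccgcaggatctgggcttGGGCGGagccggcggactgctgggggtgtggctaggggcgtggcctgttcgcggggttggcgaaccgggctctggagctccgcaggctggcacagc
The Sdc4 window holds 4 GC boxes and the Gpc5 window 1, and 35.7% of all 32851 promoter windows of this length hold at least 1. The Sdc4 window has 22 CpG dinucleotides and a GC content of 67.7%, and the Gpc5 window 17 and 54.7%, beside medians of 7.0 and 52.7% over all windows. The letters TATAAA were searched on both strands, at any position, and are present in 13.6% of all windows. They occur once in the Gpc5 window, as the reverse complement TTTATA upstream of its GC box, and not in that of Sdc4. The Sdc4 window holds TATAAG downstream of its last GC box, which differs in the last letter and was not counted. CCAAT, also searched on both strands and present in 37.4%, occurs in neither. Gpc3, at a low level, has 4 GC boxes too and 30 CpG, and the undetected Gpc2 has 3 and 26, so neither count follows the order of levels among the 7.

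Within each family 1 member held nearly all of the length-scaled level. Gpc6 made up 86.2%, 86.9% and 91.1% of the summed glypican CPM per kilobase, followed by Gpc4 with 8.56%, 7.003% and 5.89% and Gpc3 with 3.20%, 5.75% and 2.73%. Sdc2 made up 90.1%, 92.0% and 87.6% of the syndecans, and Sdc4 9.36%, 7.80% and 11.8%. Together, Sdc2 and Gpc6 held 69.4% ± 2.88 and 20.1% ± 2.09 (SD, n = 3) of all 10 members.

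**Figure D2:**
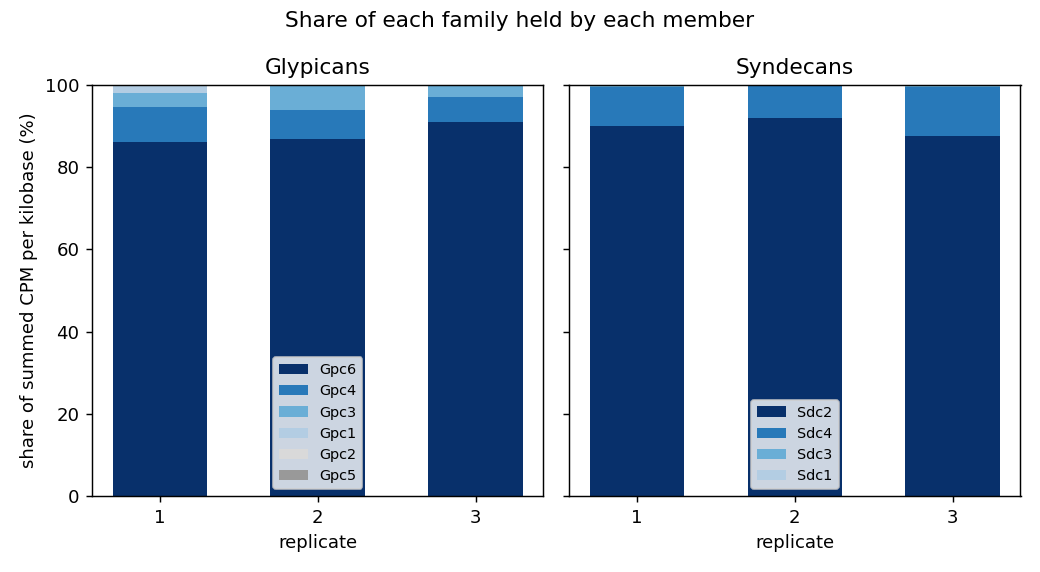
Share (%) of the summed CPM per kilobase of exon held by each glypican (left) and each syndecan (right) in replicates 1, 2 and 3. Gpc6 holds 86.2% to 91.1% and Sdc2 87.6% to 92.0% of its family; members not visible hold under 1% there.

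The syndecan sum exceeded the glypican sum in every library. The syndecans summed to 199, 196 and 205 CPM per kilobase and the glypicans to 70.3, 53.4 and 54.7, ranges that did not overlap. The glypican minus syndecan difference of log2(CPM per kilobase + 0.1) was -1.76 ± 0.22 (SD, n = 3; two-sided exact permutation test by sign flips, p = 0.25). With 3 libraries 0.25 is the smallest p this test can give, so no such difference could pass 0.05. The size depended on the length used: it was -1.19 ± 0.22 per kilobase of the longest transcript and -0.96 ± 0.21 in CPM with no length scaling. In cells sorted and lysed in bulk, fewer cells carrying a transcript and less RNA per cell cannot be told apart.

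Along the order of members, 7 of 9 neighbouring pairs had library ranges per kilobase that did not overlap. The order was set by the means of these same values, so the direction of the differences was largely built in. The same share was not taken over other genes. The 7 pairs include Sdc1 and Gpc2, with 24 and 2 counts in all. Sdc2 exceeded Gpc6 by 1.79 ± 0.20 on the log2 scale of CPM per kilobase, Gpc6 exceeded Sdc4 by 1.44 ± 0.36, and Sdc4 exceeded Gpc4 by 2.16 ± 0.64. Per kilobase of the longest transcript the first of these was 1.16 and the second 2.02, and in CPM with no length scaling 0.93 and 2.78, so which of the 2 is larger depended on the length. Gpc4 exceeded Gpc3 by 0.90 ± 0.57, with differences of 1.38, 0.28 and 1.06 in the 3 libraries. Per kilobase of the longest transcript that difference was 0.64 ± 0.57 and the ranges of Gpc4 and Gpc3 overlapped, leaving 6 of 9 pairs apart. Per kilobase of exon, the sign of each was the same in all 3 libraries (exact permutation test by sign flips, p = 0.25, Benjamini-Hochberg adjusted over the 9 pairs 0.32). Gpc3 exceeded Sdc3 in 3 of 3 libraries as well, but by anything from 0.36 to 3.51, and in CPM with no length scaling their ranges overlapped, with differences of -0.015, 2.84 and -0.76 (exact permutation test by sign flips, p = 1; 6 of 9 pairs apart). Sdc3 and Gpc1 overlapped: their difference was -0.47, 0.09 and 2.31, so their order was not set (exact permutation test by sign flips, p = 0.75). Gpc1 exceeded Sdc1 by 3.15, 0.28 and 0.87. The lowest 2, Gpc2 and Gpc5, were both at or under 3 counts. Their difference, 0.077 ± 0.068, is therefore not interpreted, though it is among the 9 adjusted pairs.

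Of the 6 detected members and Gpc1, Sdc2 varied least between libraries and Gpc1 and Sdc3 most. The SD of log2(CPM + 0.5) over the 3 libraries was 0.0032 for Sdc2, the smallest among 401 genes with a mean CPM within 2-fold of it, whose median was 0.21. With total counts in place of TMM sizes, Sdc2 stood at 608, 643 and 653 CPM, its SD was 0.053 and its percentile 6.73. For Gpc6 the SD was 0.20 (percentile 36.5 of 795 genes of like level), for Sdc4 0.33 (31.9), for Gpc4 0.45 (23.1) and for Gpc3 0.48 (16.4). Gpc1 and Sdc3 had SDs of 1.51 and 1.25, at percentiles 47.2 and 48.96 of genes of like level, so libraries that differ this much were common there. Of 3883 genes with a mean of 1 to 10 CPM, 53.3% had a highest library at least 9 times the lowest, and 34.1%, 31.9% and 34.0% were highest in replicates 1, 2 and 3.

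**Figure D3:**
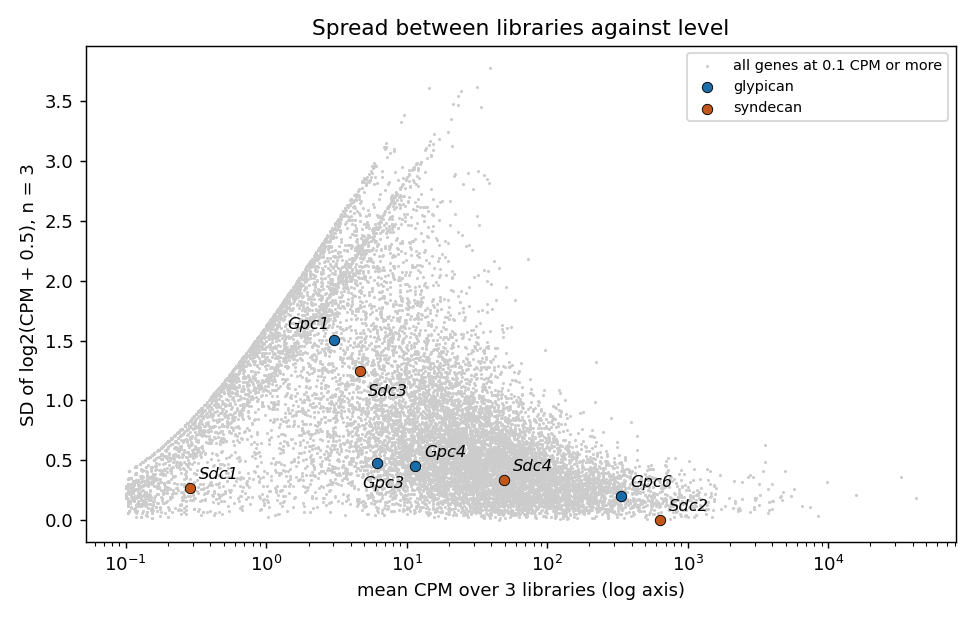
SD of log2(CPM + 0.5) over 3 libraries (vertical) against mean CPM (horizontal log axis) for all genes at 0.1 CPM or more (grey) and for 8 members (coloured). Sdc2 lies at the lower edge of genes of its level, and Gpc1 and Sdc3 lie within the broad cloud of genes below 10 CPM.

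Genes that build and edit heparan sulfate on these core proteins, anchor or release them, or bind to them were taken in 11 lists with 136 genes in all. Of these, 96 (70.6%) were detected, beside 35.0% of all genes and 43.6% of protein-coding genes. The median gene stood at 18.3 CPM, beside 0.108 CPM for all genes and 1.89 CPM for protein-coding genes. The lists were chosen with earlier results of these data known, so a share above the background cannot be read as a result about the pathway. The genes named in each are mainly those with the most CPM, an order that transcript length affects. Of 12 genes that build the linker and polymerise the chain, 9 were detected. They include both subunits of the polymerase, Ext1 at 139, 142 and 130.4 CPM and Ext2 at 65.0, 84.1 and 48.8. Per kilobase, Ext1 exceeded Ext2 in each of the 3 libraries, by 0.94 ± 0.33 in log2 units (exact permutation test by sign flips, p = 0.25; this pair and 7 others were chosen after their values were seen). Per kilobase of the longest transcript they overlapped, with a difference of 0.047 ± 0.33. Extl2 and B3galt6, which act on the linker, followed at 48.5 ± 8.90 and 39.3 ± 15.1 CPM. The xylosyltransferase that starts the linker was detected as Xylt2 (3.04, 17.6 and 19.5 CPM) but not as Xylt1 (8.53, 0 and 0.748). B4galt7, which adds the first galactose, was under 1 CPM in replicates 2 and 3 (3.14, 0.0395 and 0.107), and Extl1 had 2 counts in replicate 1 and 0 in the others.

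Of 16 heparan sulfate-modifying enzymes, 6 (37.5%) were detected, near the 35.0% of all genes and below the 43.6% of protein-coding genes. The enzymes with a single gene were both detected: the epimerase Glce at 54.5 ± 15.3 CPM and the 2-O-sulfotransferase Hs2st1 at 76.2 ± 20.5. Of the 4 N-deacetylase/N-sulfotransferases, Ndst1 (3.87, 11.2 and 17.3 CPM) and Ndst2 (21.7, 10.4 and 8.73) were detected, and Ndst3 and Ndst4 had 5 counts or fewer over the 3 libraries. Per kilobase, Ndst1 and Ndst2 overlapped, with Ndst2 higher in 2 of 3 libraries. Of the 6-O-sulfotransferases, Hs6st1 was detected at 13.7 ± 4.20 CPM, Hs6st2 had 8 counts in all and Hs6st3 none. Of the 3-O-sulfotransferases, which finish rare motifs such as the antithrombin-binding one, Hs3st1 stood at 40.5, 40.4 and 58.9 CPM. Hs3st3b1 (8.44, 0.355 and 0.321) and Hs3st3a1 (3.43, 0.197 and 1.85) passed 1 CPM in some libraries, and Hs3st2 had 0 counts.

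Enzymes that edit or degrade the chain were detected in 9 of 11 cases (81.8%), beside 43.6% of protein-coding genes. Sulf2 and Sulf1 are secreted sulfatases that remove 6-O-sulfates from finished chains and so change what glypicans and syndecans can bind. Sulf2 stood at 364, 353 and 506 CPM and Sulf1 at 95.0, 93.7 and 103. Per kilobase, Sulf2 exceeded Sulf1 by 2.98 ± 0.21 in log2 units, with the same sign in all 3 libraries (exact permutation test by sign flips, p = 0.25). The difference was 2.33 ± 0.21 per kilobase of the longest transcript and 2.05 ± 0.21 in CPM with no length scaling. The lysosomal gene Ids was at 154 ± 10.8 CPM, heparanase (Hpse) was at 6.53, 3.08 and 21.9, and Hpse2 had 2 counts in all. Of 7 genes that supply sugar and sulfate precursors, 6 were detected. Ugdh, which makes UDP-glucuronic acid, stood at 771 ± 183 CPM, Ugp2 at 392 ± 27.1, and the sulfate-activating enzyme gene Papss2 at 103.9 ± 32.4. Syndecans can also carry chondroitin sulfate, and 8 of 11 genes for that chain were detected, among them Csgalnact2 at 240.4 ± 52.6 CPM and Dse at 106.6 ± 23.5.

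**Figure D4:**
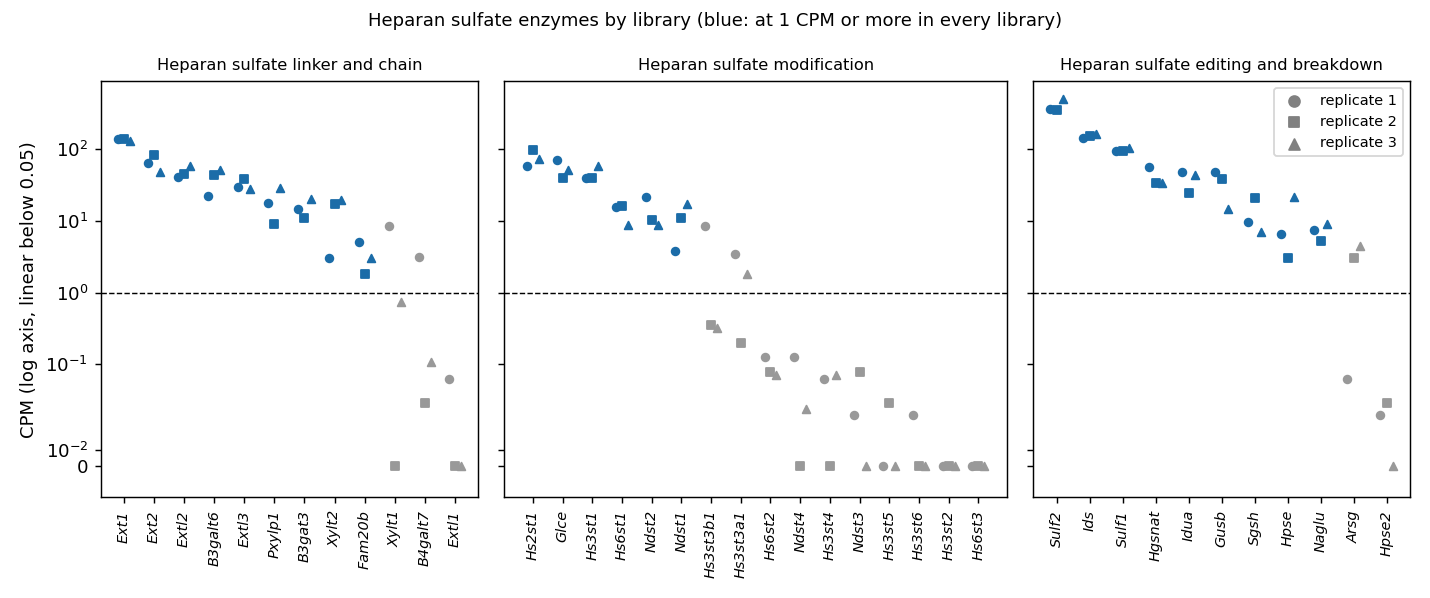
CPM (vertical log axis, linear below 0.05) of heparan sulfate enzyme genes in replicates 1, 2 and 3, in 3 lists; blue genes reach 1 CPM in each library and the dashed line is 1 CPM. In the middle list 6 of 16 are blue, against 9 of 12 and 9 of 11 in the outer lists.

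Genes that attach or release the core proteins are set beside the 43.6% of protein-coding genes that were detected. For the GPI anchor of glypicans, 5 of 9 genes (55.6%) were detected. They include the transamidase subunit genes Pigk at 56.6 ± 3.39, Pigs at 23.2 ± 12.4 and Gpaa1 at 14.4 ± 3.15 CPM. Pigu, also a subunit, varied more, at 33.2, 6.51 and 12.8 CPM. Pigt, another subunit of the same enzyme, had 3, 1 and 6 counts. Of 12 genes for release from the surface, 9 (75%) were detected. The membrane proteases Adam17 and Mmp14, which can shed syndecan ectodomains, stood at 132, 129 and 121 and at 134, 150.1 and 246 CPM, and Adam10 at 8.85, 16.0 and 3.92. Mmp2 was at 573 ± 79.1 CPM and Timp3, an inhibitor of these proteases, at 1533 ± 303. Furin, which cleaves glypican core proteins, was at 13.8 ± 2.61 CPM. Notum, also in this list, had 3 counts in replicate 1 and 0 elsewhere, and Mmp9 stood at 6.69, 0.0395 and 0 CPM.

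Binding partners were detected in most cases, beside 43.6% of protein-coding genes. Of 18 cytoplasmic and membrane partners of syndecans 17 were detected. Sdcbp (syntenin), which binds the tail that all syndecans share, stood at 854 ± 94.3 CPM, the small GTPase gene Rac1 at 498 ± 40.2, and the integrin genes Itgb1 and Itgav at 469 ± 23.5 and 444 ± 54.95. The remaining gene, Sdcbp2, had 0 counts. Of 11 glypican partners 8 were detected, among them the tetraspanin gene Cd81 at 883 ± 84.9 CPM, Lrp1, the endocytic receptor for glypican-3, at 533 ± 77.3, the Wnt receptor gene Fzd7 at 60.3 ± 4.05 and the phosphatase gene Ptprs at 51.4 ± 16.1. The Hedgehog receptor gene Ptch1 was at 0.603, 1.97 and 0 CPM, and the synaptic partners Lrrtm4 and Gpr158 had 1 and 5 counts in all.

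Of 20 heparan sulfate-binding ligands, 13 (65%) were detected, beside 43.6% of protein-coding genes. Lipoprotein lipase (Lpl), which is carried on heparan sulfate, stood at 1115 ± 90.6 CPM, the chemokine gene Cxcl12 at 420 ± 80.5, and the guidance genes Slit3 and Slit2 at 234 ± 14.9 and 127 ± 30.2. Fgf7 was at 158, 139 and 48.2 CPM and Fgf10 at 13.4 ± 1.63, but Fgf2 had 0, 16 and 0 counts. The Hedgehog ligands Shh and Ihh had 1 count each and Dhh had 0. Ptn, a classical syndecan-3 ligand, had 0 counts, while its relative Mdk stood at 14.9 ± 3.34 CPM.

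Among other heparan sulfate proteoglycans, 6 of 9 (66.7%) were detected, beside 43.6% of protein-coding genes. Per kilobase Sdc2 was above Tgfbr3 and Hspg2, the ones set beside it. Betaglycan (Tgfbr3), a membrane co-receptor of TGF-beta, stood at 133 CPM per kilobase, below Sdc2 by a log2 difference of 0.45 ± 0.25 and above Gpc6, whose difference from it was -1.34 ± 0.37. Perlecan (Hspg2), of basement membranes, stood at 7.57 CPM per kilobase, below Sdc2 by 4.58 ± 0.32 and below Gpc6 by 2.79 ± 0.44. The sign of each difference was the same in all 3 libraries (exact permutation test by sign flips, p = 0.25, Benjamini-Hochberg adjusted over 8 pairs 0.29). In CPM with no length scaling Sdc2 was below Tgfbr3, with a difference of -0.44 ± 0.25. On that scale Sdc2 and Gpc6 were still above Hspg2, but by less, 2.58 ± 0.33 and 1.65 ± 0.44. In CPM, Nrp1 and Cd44, which carry heparan sulfate in some forms, were at 342 ± 109 and 185 ± 37.02, and Spock3 had 0 counts.

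**Figure D5:**
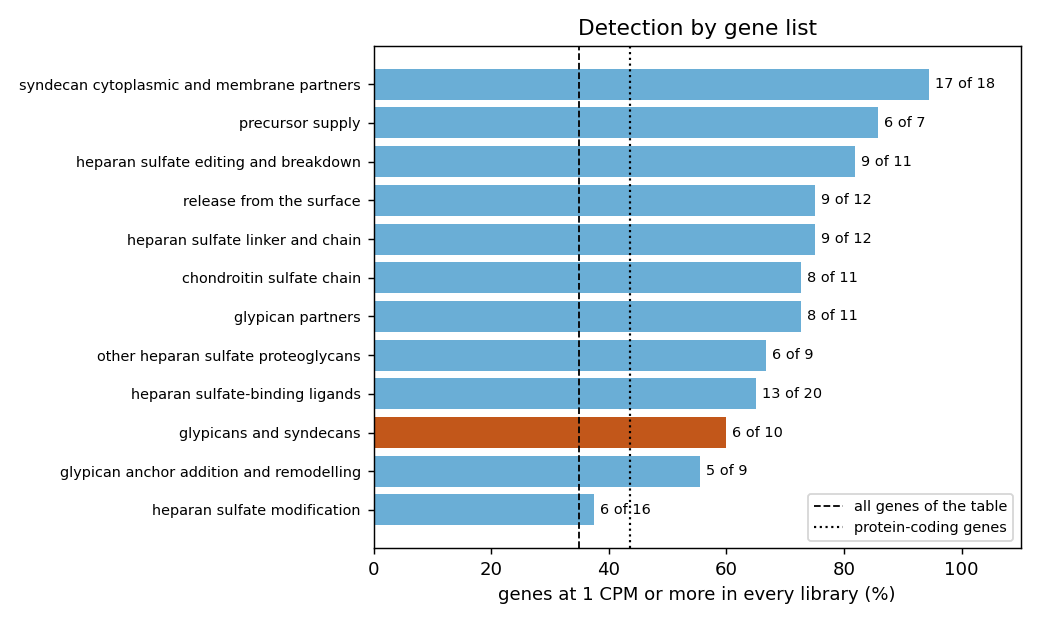
Percent of genes that reach 1 CPM in each library for the 10 glypicans and syndecans (orange) and 11 lists of related genes (blue), with counts beside the bars; lines give the 35.0% of all genes and 43.6% of protein-coding genes. The bars run from 37.5% for the modifying enzymes to 94.4% for the syndecan partners, and the members stand at 60.0%.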

How the data were processed

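RNA was counted in 3 libraries of 1 group. Libraries were made with the Clontech SMARTer Ultra Low Input kit V4, per the labels' protocols. Per the submitters' processing notes, tools were STAR 2.3.0 and CASAVA 1.8.2 and the build mm10. How reads were counted, with which annotation and whether by strand, is not given in the sources used. The authors deposited raw whole-number counts of reads for each NCBI gene ID.

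Of 27179 IDs, 25275 matched the RefSeq gene table of GRCm38.p6. CPM used TMM sizes (edgeR 4.0.16, R 4.3.3; genes with 10 counts or more in at least 1 library). Exon lengths came from GENCODE M21, for 21611 genes. Log2 values used a pseudocount of 0.1 per kilobase, or 0.5 for CPM, which shrinks differences of low genes. Gene differences within libraries were tested by an exact sign-flip permutation test; no groups exist to test. Transcript matches were sought with BLAST 2.17.0 (90% identity, 100 bases). Alternatives were DESeq2 1.42.0 size factors, total counts, other lengths, pseudocounts and thresholds, and leaving out each library. Python 3.11.15 and scipy 1.17.1 were used. Members and lists were chosen with earlier results of these data known. All members are named, with up to 4 genes per list by mean CPM, and those at 0 or undetected that a count needs. A list gene is not reported here and is in no count of its list. Any further list gene was chosen after its values were seen.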

Additional observations from a re-analysis of the deposited data

How the results depend on the processing

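The glypican minus syndecan difference kept its sign under all 10 alternatives run, but its size fell from -1.76 to -0.96 with no length scaling. The count of detected members ran from 4 (at 5 CPM) to 7 (at 0.5 CPM, or with 1 CPM required of the mean) over 9. Of the neighbour differences recomputed, 80 kept the sign of their mean and 1 did not: that of Sdc3 and Gpc1 turned to -0.19 without replicate 3 (-0.19 to 1.21 over the libraries left out). The order of neighbours came from the same values, and the 80 include Gpc2 minus Gpc5, genes with 2 and 0 counts in all. With no length scaling Gpc3 minus Sdc3 had the sign of its mean, 0.69, in 1 of 3 libraries. Length choices for the other 8 pairs were added after seeing the data. With no length scaling, Sdc2 minus Tgfbr3 turned from 0.45 per kilobase to -0.44, and Hs3st1 minus Hs2st1 from 1.17 to -0.70. The SD of Sdc2 rose to 0.053 with total counts. Over the libraries left out, the SD of log2(CPM + 0.5) ran from 0.036 to 1.86 for Gpc1 (lowest without replicate 1), from 0.11 to 1.59 for Sdc3 (lowest without replicate 2), from 0.30 to 0.67 for Gpc3, from 0.14 to 0.61 for Gpc4, from 0.073 to 0.27 for Gpc6, from 0.18 to 0.39 for Sdc1, from 0.0014 to 0.0098 for Sdc2 and from 0.20 to 0.47 for Sdc4. An SD of 2 libraries is itself imprecise. No paired analysis was possible because there is 1 group and so no second group to pair with it; differences between genes were taken within libraries. Depth limits Gpc2, Gpc5 and Sdc1, with 2, 0 and 24 counts in all.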

Other observations

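The glypican pairs on chromosomes 14 and X each lie beside a cluster of related microRNA genes, and their noncoding host genes were measured apart from the glypicans. Mir17hg, upstream of Gpc5 (chromosome 14, 115044390 to 115046728, GRCm38), had 364, 0 and 373 counts, or 11.5, 0 and 13.3 CPM, while Gpc5 had 0 in every library. Kis2, upstream of Gpc3 on chromosome X (52742563 to 52744593), had 0 counts in every library, while Gpc3 had 191, 209 and 113. Dct, the pigment enzyme gene next to Gpc6, had 0 counts. Stag3, a meiotic cohesin gene that overlaps Gpc2, had 1, 0 and 1 counts. Mature microRNAs were not measured.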
